A study of Homo sapiens with 18 samples.

Results

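*PDGFA*, *CD70*, *PTK2*, *SMAD3*, *DBN1*, *MSI2* and *SETMAR* are genes named as targets of SOX11 in mantle cell lymphoma, and their mRNA was followed here in cell lines of acute lymphoblastic leukemia of B-cell precursors (BCP-ALL). The 7 genes were picked by name from 26941 counted genes, not by a threshold on their values, but earlier results of these data were known when they were chosen. RNA was sequenced from 18 samples of 3 established BCP-ALL cell lines, which were 697, RCH-ACV and REH, the last with the *ETV6-RUNX1* fusion. Of the 6 samples of a line, 3 had received *SOX11* siRNA and 3 a non-specific control siRNA, each at 300 nM by nucleofection, and RNA was collected after 48 h. The sample titles call the first group KO, but the genome was not edited and *SOX11* mRNA was lowered, not removed. The *ETV6-RUNX1* fusion is represented by 1 line, and each line has its own libraries and table of counts, so that a line and its library preparation cannot be told apart. The question addressed was whether targets known from lymphoma follow *SOX11* in precursor leukemia.

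SOX11 is a transcription factor of the SOXC group, which binds DNA through a high-mobility-group box and is not expressed in normal B cells. In mantle cell lymphoma, a tumor of mature B cells, it is widely present, and the genes described here are tied to different parts of its action there. *PDGFA* encodes a secreted growth factor chain that acts on vessel and stromal cells, and *CD70* a membrane ligand of the TNF family that binds CD27 on lymphocytes. *PTK2* encodes focal adhesion kinase, which passes on signals from integrins, and *SMAD3* a transducer that carries TGF-beta receptor signals to the nucleus. *DBN1* encodes drebrin, an actin-binding protein, *MSI2* an RNA-binding protein of the Musashi family that controls translation in blood stem cells, and *SETMAR* a fusion of a histone methyltransferase with a transposase that takes part in DNA end joining.

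The total count on all genes lay between 7039594 and 16592492 per sample, so that 3 counts, taken as the smallest number to show a gene, equal 0.181 to 0.426 CPM (counts scaled to a common library size). Levels are given in CPM after TMM scaling over all 18 samples. The *SOX11* gene (NM_003108) lies on chromosome 2 of hg19 from 5832516 to 5841517. Its mRNA went from 96.3 ± 2.92 CPM in the control samples of REH to 54.1 ± 6.89 CPM after its siRNA, from 59.6 ± 0.278 CPM to 31.7 ± 0.847 CPM in 697 cells, and from 131 ± 6.07 CPM to 82.3 ± 4.06 CPM in RCH-ACV cells (SD, n = 3 each). Its groups did not overlap in any line, and the siRNA left 56.4%, 53.0% and 62.7% of the control level. For its knockdowns the study reports lower remaining levels than these, of mRNA by RT-qPCR and of protein by Western blotting. B precursor markers were present, with 9 of 10 above 1 CPM in REH and 10 of 10 in the other lines, whereas 1 of 5 markers of mature or mantle cell lymphoma cells, *MS4A1*, reached that level. None of the 4 T-cell and 4 erythroid markers did. Of 4 fibroblast markers *PDGFRB* alone did, in every line. Of 5 myeloid markers *MPO* alone did in REH, and *CSF1R* alone in 697 and RCH-ACV. In RCH-ACV the summed level of the mature markers was 9.22 to 10.5 CPM in control samples and 12.4 to 24.4 CPM after *SOX11* siRNA, and in REH that of 5 myeloid markers was 14.1 to 15.7 CPM and 8.82 to 10.0 CPM. The sum of the B precursor markers was 5491 to 5642 CPM with control siRNA and 5894 to 5946 CPM with *SOX11* siRNA in REH, and 5116 to 5432 CPM and 4474 to 4664 CPM in 697, with no overlap in these lines, whereas in RCH-ACV the ranges overlapped (4649 to 4855 CPM and 3926 to 4701 CPM). The part of these markers in the differences described here was not tested. In such bulk samples fewer cells of a type and less RNA per cell cannot be told apart. The 3 replicates of a group are biological replicates by the study's methods, and the p-values measure the spread between them. Where the 3 lines are fitted together with 1 siRNA effect, that spread also holds differences of the effect between lines. Between replicates the chi-square divided by its degrees of freedom was 1.3 to 5.18, highest between control replicates 1 and 3 of 697, so that every pair differed by more than the counting noise.

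Sequence around the genes' start sites was searched for the short word that SOX proteins prefer, and the matches are shown because the genes are named as targets of this factor. From the RefSeq promoter table (GRCh38), windows of 300 bases were searched for 5 of the 7 genes. Each window ran from 250 bases upstream to 50 downstream of a start site. Windows of *PTK2* and *CD70* were not among those searched, so nothing is said here of their promoters. The word was NNCAANG with A or T at each N, which stands for 8 words of 7 letters, and both strands were searched. At least 1 of the 8 words was held by 20.4% of all 35116 windows, and by 4 of the 14 windows of the 5 genes searched. Each match is shown on the strand of its gene, 5′ to 3′, with the word in capitals, and all 4 read as the reverse complement of a searched word.
*SETMAR*, chr3:4303127-4303155: aaagcacctcaCTTTGTTtcgtccgtacc
*PDGFA*, chr7:520044-520072: cgggcgcggggCTTTGATggatttagctg
*SMAD3*, chr15:67166281-67166309: gtctttgccgtCATTGAActtgcaaccta
*MSI2*, chr17:57255624-57255652: acaaacatttgCTTTGAAcctcaatcatg
The words began 231, 215, 239 and 216 bases upstream of the start sites of *SETMAR*, *PDGFA*, *SMAD3* and *MSI2*. The match for *SMAD3* lay at 1 of its 5 start sites, that for *PDGFA* at 1 of 4 and that for *MSI2* at 1 of 2. The 2 windows of *DBN1* held no word. A word in a window is a description of the sequence, and binding was not measured in these samples.

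None of the 7 genes passed the test for an effect of *SOX11* siRNA in a single line. In REH 0 of 7 and in 697 0 of 7 had an adjusted p under 0.05 (edgeR's quasi-likelihood F-test, Benjamini-Hochberg adjustment over all genes tested), and in RCH-ACV 0 of the 6 that passed the filter on low counts. Over all genes tested the share was 4.65% in REH, 0.559% in 697 and 7.51% in RCH-ACV. DESeq2 also called 0 of these genes in each line. At an unadjusted p under 0.05 stood 1 of the 7 in REH (*SETMAR*), 1 of the 7 in 697 (*SMAD3*) and 1 of the 6 in RCH-ACV (*PTK2*), against 16.9%, 8.24% and 22.5% of all genes. When the 3 lines were fitted together with the line as a covariate, *SMAD3* and *PTK2* were lower with *SOX11* siRNA, at 91.3% and 93.3% of the control level. In that fit 2 of the 7 genes were called lower and 0 higher, against 4.83% of all 14026 genes lower and 3.31% higher (8.14% in either direction). Values in parentheses after a log2 fold change are its 95% interval. The genes follow by their role, and the plot of the level in each sample shows them side by side with *SOX11*.

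**Figure D1:**
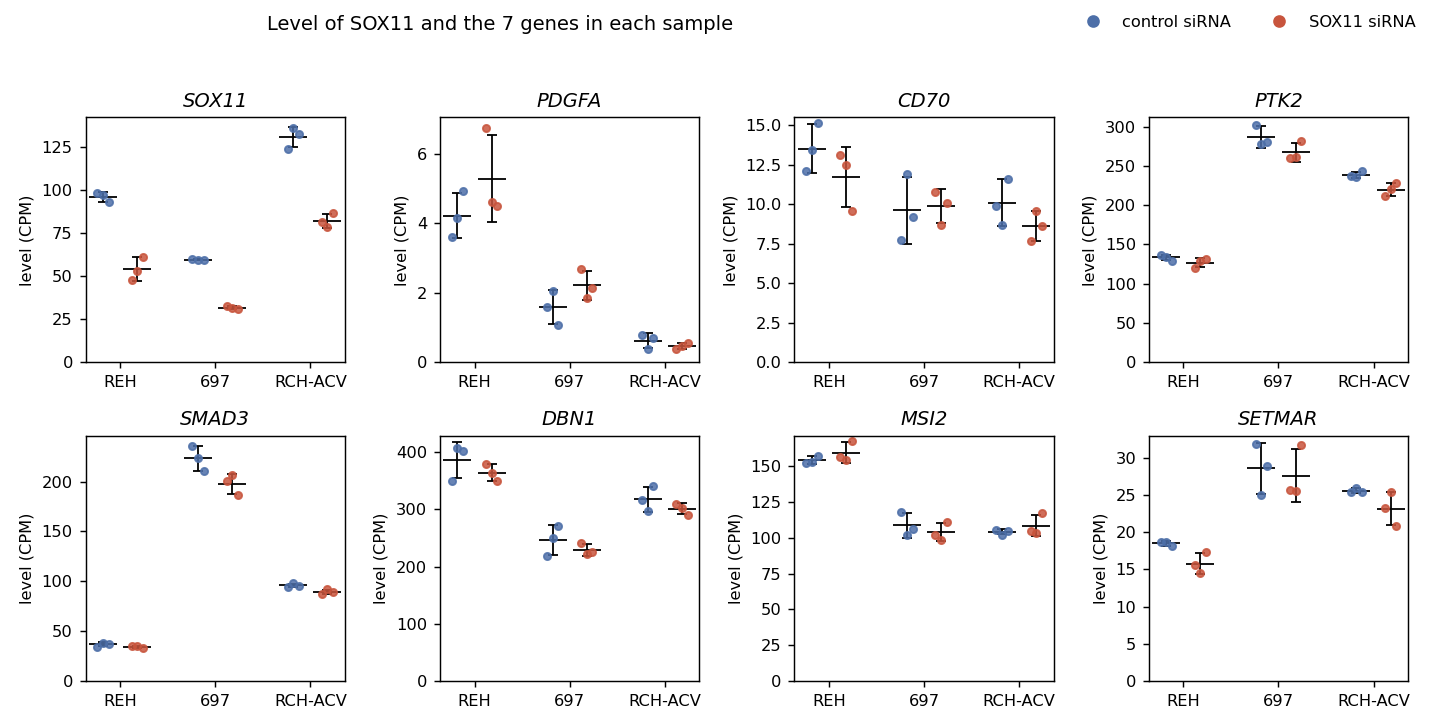
Level of *SOX11* and of the 7 genes in every sample, in CPM on a linear axis from 0. Points are the 3 samples of a group, with control siRNA in blue and *SOX11* siRNA in red, and bars give the mean and SD. The groups are apart for *SOX11* in each line, whereas each of the 7 genes has at least 1 line in which they overlap.

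Of the secreted and membrane ligands, *PDGFA* (NM_002607, chromosome 7 of hg19 from 536895 to 559933) had few reads in each line. In REH the control samples stood at 3.61, 4.14 and 4.92 CPM and the *SOX11* siRNA samples at 6.72, 4.61 and 4.49 CPM. In 697 the levels were 1.60, 2.05 and 1.08 CPM with control siRNA against 2.67, 1.85 and 2.13 CPM after *SOX11* siRNA. RCH-ACV gave 0.797, 0.390 and 0.698 CPM for the control samples against 0.379, 0.478 and 0.545 CPM for the *SOX11* siRNA samples. The first *SOX11* siRNA sample of REH was the highest of all, and the groups overlapped in each line. In RCH-ACV these levels rest on 7, 3 and 6 reads with control siRNA and 3, 8 and 5 with *SOX11* siRNA, which is close to the floor, and the gene did not pass the filter there. The log2 fold change was 0.36 in REH (95% interval -0.03 to 0.76) and 0.49 in 697 (-0.19 to 1.17), with adjusted p = 0.352 and 0.794. In the joint fit it was 0.31 (standard error 0.16, adjusted p = 0.253). This is the opposite sign to that of *SOX11*, but not past the threshold.

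*CD70* (NM_001252, chromosome 19 of hg19 from 6583194 to 6604114) was counted by 61 to 171 reads a sample. Control samples of REH had 12.1, 13.4 and 15.1 CPM, against 13.1, 12.5 and 9.56 CPM after *SOX11* siRNA. Those of 697 had 7.73, 11.9 and 9.18 CPM, against 10.8, 8.70 and 10.1 CPM after the siRNA. Control samples of RCH-ACV had 9.90, 8.70 and 11.6 CPM, against 7.70, 9.57 and 8.62 CPM after it. The groups overlapped in all 3 lines. With *SOX11* siRNA the log2 fold change was -0.19 in REH (-0.45 to 0.07), 0.04 in 697 (-0.35 to 0.44) and -0.20 in RCH-ACV (-0.49 to 0.10), with adjusted p = 0.487, 0.984 and 0.432. In 697 the sign turned when the first *SOX11* siRNA sample (-0.026) or the first control sample (-0.098) was left out. The joint fit gave -0.13 (standard error 0.09, adjusted p = 0.448).

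*PTK2*, the kinase of focal adhesions (NM_001199649, chromosome 8 of hg19 from 141667999 to 142012315), was counted by at least 976 reads in every sample. In REH the control samples stood at 136, 135 and 129.5 CPM and the *SOX11* siRNA samples at 120.3, 128 and 132 CPM. In 697 the levels were 302, 278 and 280.5 CPM with control siRNA against 259.5, 261 and 282 CPM after *SOX11* siRNA. RCH-ACV gave 237, 236 and 243 CPM for the control samples against 211, 220.0 and 228 CPM for the *SOX11* siRNA samples. In RCH-ACV the highest *SOX11* siRNA sample was under the lowest control sample, as was so for 25.9% of all genes there in either direction, whereas the groups overlapped in REH and 697. The log2 fold change was -0.07 in REH (-0.16 to 0.02), -0.10 in 697 (-0.21 to 0.01) and -0.12 in RCH-ACV (-0.21 to -0.03), with adjusted p = 0.468, 0.652 and 0.103. Without the third *SOX11* siRNA sample of RCH-ACV, the highest of its group, the change there was -0.14 and passed (adjusted p = 0.00886). In the joint fit the change was -0.10 (standard error 0.03, adjusted p = 0.0255). This call was lost with the replicate number as a block (adjusted p = 0.0676). It was also lost without the first *SOX11* siRNA sample of REH (0.0567), of 697 (0.0557) or of RCH-ACV (0.0659), without the first control sample of 697 (0.0528) and without the third control sample of RCH-ACV (0.0593), while the log2 fold change stayed between -0.11 and -0.09 over all 26 alternatives.

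*SMAD3* (NM_005902, chromosome 15 of hg19 from 67356101 to 67487511) encodes a transcription factor that carries TGF-beta and activin signals to the nucleus. Control samples of REH had 34.4, 38.3 and 37.5 CPM, against 34.6, 34.9 and 33.0 CPM after *SOX11* siRNA. Those of 697 had 236, 224 and 210.5 CPM, against 200.3, 207 and 186 CPM after the siRNA. Control samples of RCH-ACV had 94.4, 98.0 and 95.1 CPM, against 87.3, 91.8 and 89.3 CPM after it. The groups overlapped in REH, whereas in 697 and RCH-ACV each *SOX11* siRNA sample lay below each control sample, which held for 13.1% of all genes in 697 and 25.9% in RCH-ACV in either direction. Its log2 fold change was -0.10 in REH (-0.25 to 0.04), -0.18 in 697 (-0.31 to -0.05) and -0.09 in RCH-ACV (-0.20 to 0.01), with adjusted p = 0.519, 0.381 and 0.293. The joint fit gave -0.13 (standard error 0.03, adjusted p = 0.0116). Over 26 alternatives this call was kept, with adjusted p from 0.00410 to 0.0312, and the replicate block gave 0.0247. The gene shares 182 exon bases with a long noncoding RNA on the opposite strand, and whether the counting used strand is not given in the sources used here, so reads of that RNA cannot be told apart from those of *SMAD3*.

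The actin-binding protein gene *DBN1* (NM_004395, chromosome 5 of hg19 from 176883609 to 176901402) was counted by at least 1702 reads in every sample. In REH the control samples stood at 349.7, 408 and 402 CPM and the *SOX11* siRNA samples at 379, 364 and 349 CPM. In 697 the levels were 219, 249.8 and 271 CPM with control siRNA against 241, 221 and 225 CPM after *SOX11* siRNA. RCH-ACV gave 316, 297 and 340.5 CPM for the control samples against 309, 303 and 290.4 CPM for the *SOX11* siRNA samples. The groups overlapped in all 3 lines. For *DBN1* the log2 fold change was -0.08 in REH (-0.18 to 0.01), -0.11 in 697 (-0.28 to 0.07) and -0.08 in RCH-ACV (-0.18 to 0.02), with adjusted p = 0.400, 0.841 and 0.365. In REH it passed without the first control sample (-0.15, adjusted p = 0.0298). The joint fit gave -0.09 (standard error 0.04, adjusted p = 0.148), and -0.11 with adjusted p = 0.0437 without the first control sample of 697. When libraries were corrected for the GC content of transcripts, an alternative added after the data were seen, it was also called lower in the joint fit (adjusted p = 0.00826, and 0.0135 with the replicate block) and in RCH-ACV (adjusted p = 0.0185, and 0.0203 with the block).

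Of the RNA- and DNA-binding proteins, *MSI2* (NM_138962, chromosome 17 of hg19 from 55333212 to 55762050) had the joint log2 fold change nearest to 0. Control samples of REH had 152, 153 and 157 CPM, against 156, 154 and 168 CPM after *SOX11* siRNA. Those of 697 had 118, 102 and 106 CPM, against 102, 98.8 and 111 CPM after the siRNA. Control samples of RCH-ACV had 106, 102 and 105 CPM, against 105, 103 and 117 CPM after it. The groups overlapped in each line. Its log2 fold change was 0.06 in REH (-0.03 to 0.14), -0.07 in 697 (-0.22 to 0.08) and 0.06 in RCH-ACV (-0.06 to 0.17), with adjusted p = 0.553, 0.904 and 0.596. The joint fit gave 0.02 (95% interval -0.06 to 0.09, adjusted p = 0.859).

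*SETMAR* (NM_006515, chromosome 3 of hg19 from 4345016 to 4358949) lies within *SUMF1*, a gene on the opposite strand with which it shares 0 exon bases. In REH the control samples stood at 18.7, 18.7 and 18.1 CPM and the *SOX11* siRNA samples at 15.6, 14.5 and 17.3 CPM. In 697 the levels were 31.9, 25.0 and 28.9 CPM with control siRNA against 25.7, 25.5 and 31.7 CPM after *SOX11* siRNA. RCH-ACV gave 25.4, 26.0 and 25.4 CPM for the control samples against 23.3, 25.4 and 20.9 CPM for the *SOX11* siRNA samples. In REH each *SOX11* siRNA sample lay below each control sample, which held for 21.4% of all genes there in either direction, and the groups overlapped in 697 and RCH-ACV. The log2 fold change was -0.21 in REH (-0.41 to -0.02), -0.05 in 697 (-0.31 to 0.20) and -0.12 in RCH-ACV (-0.31 to 0.07), with adjusted p = 0.242, 0.972 and 0.463. In 697 the value turned to 0.009 without the second *SOX11* siRNA sample and to 0.032 without the first control sample. The joint fit gave -0.13 (standard error 0.06, adjusted p = 0.211).

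Set beside the fall of *SOX11* itself, the differences were small. The log2 fold change of *SOX11* was -0.83 in REH (95% interval -0.96 to -0.69), -0.91 in 697 (-1.07 to -0.76) and -0.67 in RCH-ACV (-0.79 to -0.56), and the 95% interval of each of the 20 gene and line pairs that could be fitted lay above the value of *SOX11* in that line. The lowest bound of any of them was -0.49, for *CD70* in RCH-ACV. *SOX11* is the direct target of the siRNA, so this comparison does not tell whether a gene followed it in part. The matching share over all genes was not counted. The median log2 fold change over the 7 genes was -0.08 in REH and -0.07 in 697, and over the 6 fitted genes in RCH-ACV -0.11. Over all genes tested the median was -0.002, -0.004 and 0.005. Of the 20 values 15 were below 0, with 5 in each line. Over all genes the number below 0 was 6524 of 12787 for REH, 6262 of 12169 for 697 and 6288 of 12963 for RCH-ACV. A test of whether the siRNA effect differed between the lines called 0 of the 7 genes, with adjusted p from 0.806 (*PDGFA*) to 1.00 (*DBN1*), against 0.734% of all genes. At an unadjusted p under 0.05 edgeR gave 0 of the 7 there, and DESeq2 called 0.

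**Figure D2:**
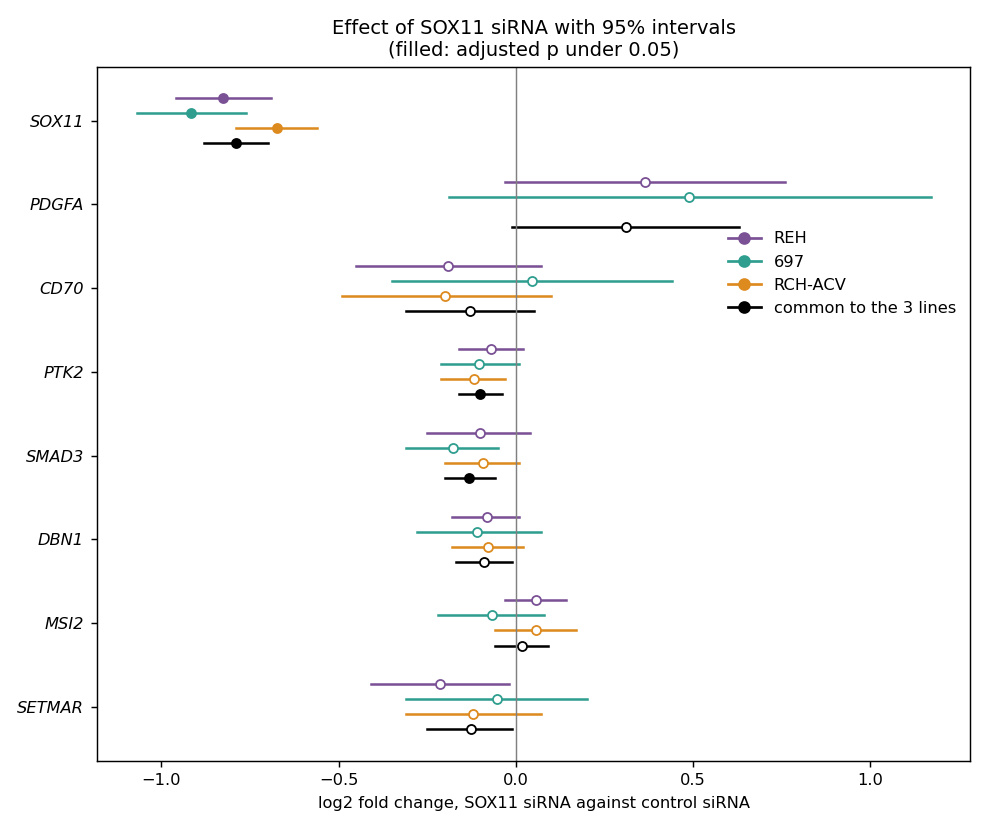
Log2 fold change of *SOX11* siRNA against control siRNA with its 95% interval, for *SOX11* and the 7 genes in each line and in the fit common to the 3 lines. Filled points passed the adjusted p of 0.05. *SOX11* lies between -0.91 and -0.67 in the single lines, and the 20 intervals of the 7 genes lie to the right of its value in the same line, with *SMAD3* and *PTK2* filled in the common fit alone.

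The control samples give the level of each gene in the 3 lines. All 7 genes differed between 697 and REH, where 76.2% of all genes did, and between RCH-ACV and REH, where 73.7% did. *SMAD3* differed most upward, with 223 ± 12.5 CPM in 697, 95.8 ± 1.95 CPM in RCH-ACV and 36.7 ± 2.06 CPM in REH (SD, n = 3 each here and for the values that follow). Its level in 697 was 6.12-fold and in RCH-ACV 2.63-fold that in REH (adjusted p = 1.73e-17 and 4.30e-13), and RCH-ACV was at 43.0% of 697 (adjusted p = 8.20e-13). *PTK2* had the same order, with 287 ± 13.6 CPM, 239 ± 4.06 CPM and 134 ± 3.54 CPM, each step past the threshold (largest adjusted p = 5.10e-05). *SETMAR* was also highest in 697 (28.6 ± 3.49 CPM) and lowest in REH (18.5 ± 0.335 CPM), but 697 and RCH-ACV (25.6 ± 0.343 CPM) did not differ beyond their spread (log2 difference -0.16, 95% interval -0.36 to 0.03, adjusted p = 0.130), although without the second control sample of 697 they did (adjusted p = 0.0259).

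The other 4 genes were highest in REH. *PDGFA* had 4.22 ± 0.657 CPM in REH, 1.58 ± 0.488 CPM in 697 and 0.628 ± 0.212 CPM in RCH-ACV, with log2 differences from REH of -1.39 and -2.67 (adjusted p = 7.39e-05 and 2.72e-07). The step from 697 to RCH-ACV (adjusted p = 0.00951) did not pass without the second control sample of 697 (0.0503). *DBN1* was 386 ± 32.0 CPM in REH, 318 ± 21.8 CPM in RCH-ACV and 247 ± 26.5 CPM in 697, each step past the threshold (largest adjusted p = 0.00226). *MSI2* was 154 ± 2.67 CPM in REH, above 109 ± 8.48 CPM in 697 and 104 ± 1.82 CPM in RCH-ACV, and these last did not differ beyond their spread (-0.06, 95% interval -0.18 to 0.06, adjusted p = 0.360). *CD70* was 13.5 ± 1.54 CPM in REH, 10.1 ± 1.48 CPM in RCH-ACV and 9.60 ± 2.11 CPM in 697. For *CD70* RCH-ACV and 697 did not differ beyond their spread (0.09, -0.26 to 0.44, adjusted p = 0.645), and the difference between RCH-ACV and REH (adjusted p = 0.0235) was lost with DESeq2 (0.0513) and without the third control sample of REH (0.0895) or the first (0.0676) or second (0.104) of RCH-ACV.

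In all, 7 of the 7 genes differed between 697 and REH, 3 of them higher and 4 lower in 697, against 76.2% of all genes (36.9% higher and 39.3% lower). Between RCH-ACV and REH it was again 7, with 3 higher and 4 lower in RCH-ACV, against 73.7% (37.6% and 36.1%). Between RCH-ACV and 697 it was 4 of 7, with 1 higher and 3 lower in RCH-ACV, against 64.2% (33.3% and 30.9%). The 3 comparisons share their control samples. *SOX11* itself was highest in RCH-ACV, then REH, then 697, with log2 differences of 0.45 for RCH-ACV against REH and -0.68 for 697 against REH. This order was seen for 0 of the 7 genes. *SMAD3*, *PTK2* and *SETMAR* had their highest mean in 697, the line with the least *SOX11*.

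**Figure D3:**
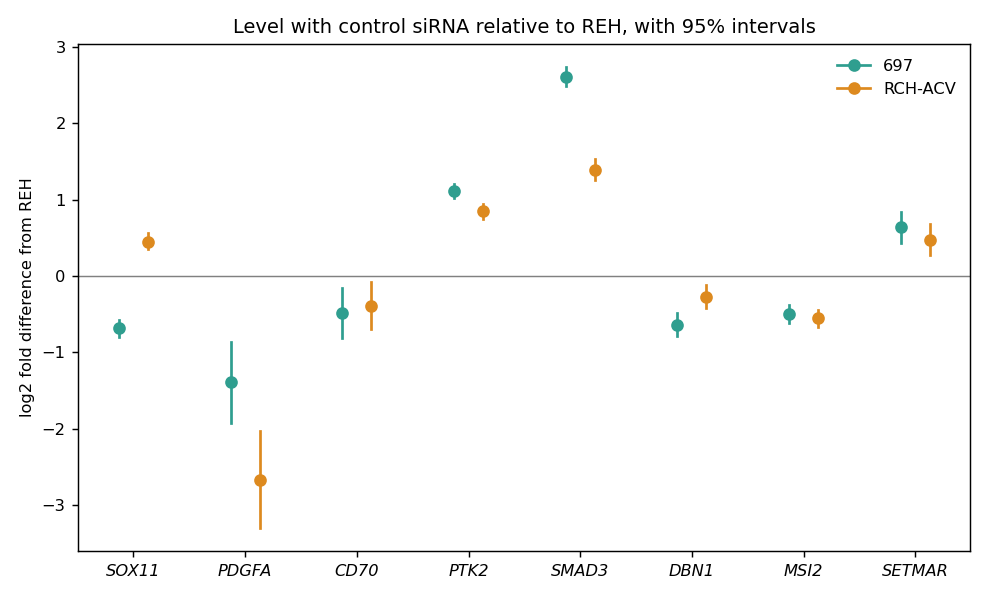
Level with control siRNA in 697 and RCH-ACV relative to REH, as log2 fold difference with its 95% interval, for *SOX11* and the 7 genes. *SMAD3*, *PTK2* and *SETMAR* lie above 0 in both lines, and *PDGFA*, *CD70*, *DBN1* and *MSI2* below 0 in both, whereas *SOX11* is below 0 in 697 and above it in RCH-ACV.

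To set the genes against each other, the control level was divided by transcript length, in CPM per kilobase. The length is that of the canonical GENCODE transcript, since the length of the counted transcript is not given in the sources used here. *DBN1* was highest per kilobase in each line, at 128 (REH), 81.6 (697) and 105 (RCH-ACV). *PTK2* came next, at 26, 55.9 and 46.5 in the same order of lines, and *MSI2* stood at 24.2, 17 and 16.3. *SMAD3* spanned 5.68 in REH to 34.5 in 697, so that it was below all but *PDGFA* in REH and above all but *DBN1* and *PTK2* in 697. *CD70* was 10.5 to 14.8, *SETMAR* 8.91 to 13.8 and *PDGFA* 0.229 to 1.54 CPM per kilobase. *SOX11* itself was at 6.62 to 14.5 CPM per kilobase.

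Replicates of 1 group differed in a way that moved some of the genes together. In each library the deviation of all genes from their group mean was set against transcript GC content, which gave a slope from -0.092 (control replicate 1 of 697) to 0.059 (control replicate 3 of 697) on the log2 scale per 10 percentage points of GC. Of the 7 genes *DBN1*, *CD70* and *PDGFA* have the GC-richest transcripts (60.9%, 59.9% and 57.6%) and *MSI2*, *PTK2* and *SETMAR* the poorest (41.6%, 45.1% and 45.4%). *DBN1* deviated to the same side as the slope in 16 of 18 samples, and *CD70* and *PDGFA* did so in 11 of 18 each. *PTK2*, *MSI2* and *SETMAR* each deviated to the opposite side in 13 of 18. *SMAD3*, at 51.1% GC, went with the slope in 12 of 18, with Pearson's r of 0.05 between deviation and slope over these samples. This r was 0.82 for *DBN1*, 0.55 for *CD70* and 0.15 for *PDGFA*, and -0.80 for *MSI2*, -0.77 for *PTK2* and -0.49 for *SETMAR*. The first control sample of 697, with the lowest slope, deviated by -0.17 on the log2 scale for *DBN1* and by 0.12 for *MSI2* and 0.08 for *PTK2*. With the GC correction the joint calls of *SMAD3* (adjusted p = 0.00410) and *PTK2* (0.00397) were kept, and with the replicate block added to it as well (0.00590 and 0.0113).

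**Figure D4:**
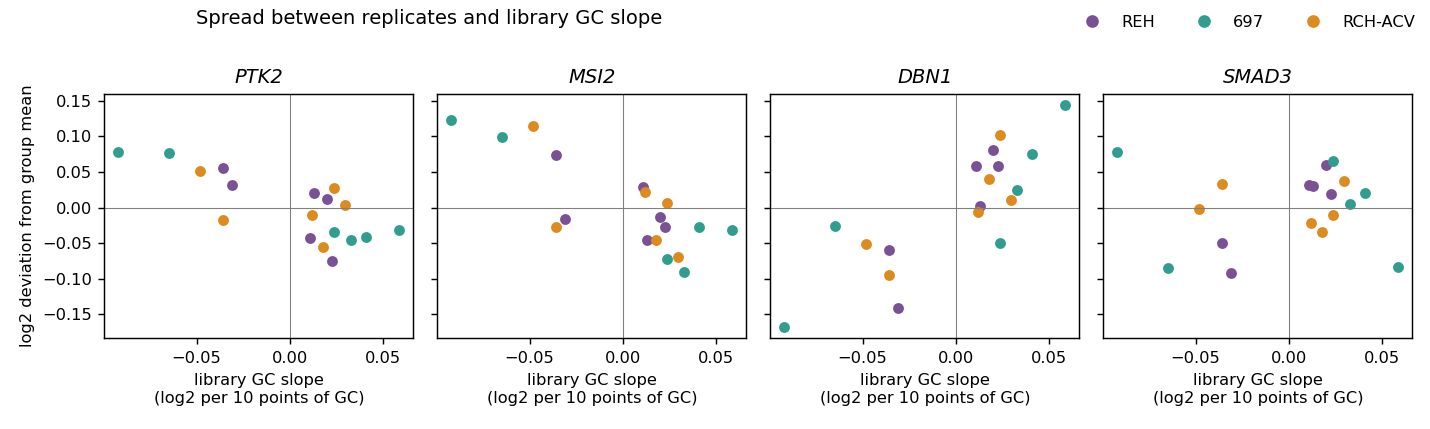
Deviation of *PTK2*, *MSI2*, *DBN1* and *SMAD3* from their group mean in each of the 18 samples (log2 scale) against the GC slope of that library (log2 per 10 percentage points of transcript GC), colored by line. *PTK2* and *MSI2* lie mainly in the upper left and lower right, *DBN1* in the lower left and upper right.

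Among 10865 other genes whose mean level was 5 CPM or more, those with a pattern most like each of the 7 over the 18 samples were found by Pearson's r of log2 CPM. The samples share 3 lines, so these values mainly describe differences between lines. *SMAD3* was most like *FGFR2* and *RPL3* (r = 0.997 for both) and *PTK2* most like *FLT1* and *NCBP2* (r = 0.996 for both). *MSI2* was most like *CTDSPL2* (r = 0.985) and *RFX7* (0.982), *DBN1* like *EDC4* (0.979) and *LZTS2* (0.978), *SETMAR* like *STRAP* (0.974) and *SSBP1* (0.972), and *CD70* like *MIIP* (0.839) and *NOSIP* (0.833). *PDGFA*, with a mean below 5 CPM itself, was most like *VRK2* (0.971) and *PDE4B* (0.968) among 10866 genes. After the group means were taken off, r over the 18 samples fell to 0.194 and 0.107 for *FGFR2* and *RPL3* with *SMAD3*, whereas for *RFX7* with *MSI2* it was 0.920 and for *LZTS2* with *DBN1* 0.914.

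Other genes tied to SOX11 in mantle cell lymphoma were looked at in the same fits (*PAX5*, *PRDM1*, *CXCR4*, *BCL6*, *HILPDA* and *CCND1*). In REH 2 of the 4 tested were called, in 697 0 of 5 and in RCH-ACV 1 of 5, with median log2 fold changes of 0.002, -0.118 and 0.034. The share of all genes called was 4.65% in REH, 0.559% in 697 and 7.51% in RCH-ACV. For a short list in 697, 0 calls is therefore near the share of all genes. *CXCR4*, a chemokine receptor that guides B cells to stroma, was higher with *SOX11* siRNA in REH (0.20, adjusted p = 0.00146) and RCH-ACV (0.26, adjusted p = 0.000651), and in 697 the value was -0.14 (adjusted p = 0.605). Its effect differed between the lines (adjusted p = 0.00759 for the interaction). *HILPDA*, a lipid droplet protein of the hypoxia response, was lower in REH (-0.33, adjusted p = 0.0101) and in the joint fit (-0.18, adjusted p = 0.0392). *PAX5*, which holds B cells in their lineage, stood between 736 and 933 CPM over all samples, and its joint log2 fold change was -0.02 (95% interval -0.09 to 0.05, adjusted p = 0.758). *PRDM1*, a regulator of plasma cell differentiation that did not pass the filter in REH, had a joint log2 fold change of -0.59 (95% interval -1.01 to -0.18, adjusted p = 0.0665). *CCND1*, the cyclin that defines mantle cell lymphoma, had at most 11 reads in any sample.

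Of the other PDGF genes, *PDGFB*, *PDGFC*, *PDGFD* and the receptor *PDGFRA* had 0 counts in all 18 samples, which allows a level of up to 0.181 to 0.426 CPM by the depth of each sample. The receptor *PDGFRB* was present, at 16.6 ± 1.93 CPM in REH, 102 ± 7.41 CPM in 697 and 178 ± 5.92 CPM in RCH-ACV with control siRNA (SD, n = 3 each), which is the reverse of the order of *PDGFA*. It was not called for the siRNA, with a joint log2 fold change of -0.03 (95% interval -0.13 to 0.07, adjusted p = 0.827). Of the 20 genes listed as partners of focal adhesion kinase, 4 of 18 tested were higher in REH and 0 lower, 0 of 18 were called in 697, and in RCH-ACV 1 of 19 was higher and 3 lower. Among all genes tested 4.65%, 0.559% and 7.51% were called in these lines in either direction. *NEDD9*, a docking protein that the kinase binds, was higher in REH (0.71, adjusted p = 0.00574) and RCH-ACV (0.69, adjusted p = 0.0128), at 4.77 ± 0.779 CPM and 4.16 ± 0.274 CPM with control siRNA. *ITGB1*, the beta-1 integrin chain, was higher in REH (0.34, adjusted p = 0.000149) and lower in RCH-ACV (-0.21, adjusted p = 0.00964), and the effect differed between the lines (adjusted p = 0.000259). *ARHGEF7*, an exchange factor for small GTPases, likewise was higher in REH (0.14, adjusted p = 0.0442) and lower in RCH-ACV (-0.22, adjusted p = 0.0196), with adjusted p = 0.0126 for the difference. *ITGA4* was higher in REH (0.23, adjusted p = 0.000132) and *VCL*, vinculin, lower in RCH-ACV (-0.24, adjusted p = 0.0164). In 697 the value of *VCL* was -0.28 (adjusted p = 0.0685). The joint fit called *VCL* lower (-0.18, adjusted p = 0.00326) and *NEDD9* higher (0.47, adjusted p = 0.000545). The list had median log2 fold changes of 0.075 (REH), -0.047 (697) and -0.063 (RCH-ACV).

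In the TGF-beta list, 2 of 16 tested genes were higher in REH, 0 of 16 were called in 697, and 1 was higher and 3 lower of 16 in RCH-ACV, with medians of -0.017, 0.041 and -0.050. Among all genes the share called was 4.65%, 0.559% and 7.51%. The type I receptor kinase *TGFBR1*, which activates SMAD3, was lower in RCH-ACV (-0.37, adjusted p = 0.0342) and in the joint fit (-0.19, adjusted p = 0.00980), as was *PMEPA1*, a SMAD-binding inhibitor of the pathway (-0.37, adjusted p = 0.0150 in RCH-ACV and -0.34, adjusted p = 0.00187 jointly). *SKIL*, a repressor that binds SMAD proteins, was lower in RCH-ACV (-0.49, adjusted p = 0.00345) and *SMURF1*, a ubiquitin ligase of the pathway, higher (0.27, adjusted p = 0.0122). In REH the type II receptor *TGFBR2* (0.24, adjusted p = 0.00678) and *LDLRAD4* (0.17, adjusted p = 0.0379) were higher.

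*CD27*, the receptor of CD70, was at 0.561 to 2.95 CPM over all samples, and in RCH-ACV it was higher with *SOX11* siRNA, at 2.80 ± 0.239 CPM against 1.24 ± 0.191 CPM with control siRNA (log2 fold change 1.19, adjusted p = 0.00871), where it was the 1 gene called of 10 tested in the list of CD70 receptor and TNF-family ligands. DESeq2 called 0 of that list in RCH-ACV. In REH 2 of 12 were lower, *TNFSF9*, the 4-1BB ligand (-1.06, adjusted p = 0.0208), from 2.51 ± 0.120 CPM to 1.18 ± 0.145 CPM, and *LTB*, lymphotoxin beta (-0.37, adjusted p = 0.00108). DESeq2 called 1 of the list in REH. In 697 0 of 11 were called. The list's median was -0.188 in REH, -0.012 in 697 and 0.064 in RCH-ACV. *LTB* was also lower in the joint fit (-0.37, adjusted p = 0.00479), where nearly all its reads are from REH, since it was under 1 CPM in every sample of the other lines.

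*MSI1*, the other Musashi gene, had at most 2 reads in any sample. Of the Musashi genes and their known transcripts, 1 of 8 tested was higher and 1 lower in REH, 0 of 7 were called in 697, and 1 of 7 was higher and 1 lower in RCH-ACV, with medians of -0.093, -0.085 and 0.001. For this list and those that follow, the share of all genes called was 4.65% in REH, 0.559% in 697 and 7.51% in RCH-ACV. *IKZF2* was higher in REH (0.45, adjusted p = 1.54e-05) and RCH-ACV (0.37, adjusted p = 0.00146), and *MYC* was lower in REH (-0.25, adjusted p = 0.000229), an effect that differed between the lines (adjusted p = 0.00489). *SMAD3* and *TGFBR1*, described before, belong to this list too. Of the 9 genes with the actin-binding domain that drebrin carries, 0 were called in REH and 697 and 1 in RCH-ACV, *COTL1*, coactosin-like protein (0.23, adjusted p = 0.0397; DESeq2 called 0 of the family there), and in the joint fit *DBNL*, drebrin-like protein, was higher (0.11, adjusted p = 0.0393). The family had medians of -0.028 (REH), 0.048 (697) and 0.082 (RCH-ACV). Of the 12 genes listed for end-joining repair, 2 were higher in REH, 0 were called in 697, and 1 was higher and 1 lower in RCH-ACV. The medians were 0.015, 0.035 and 0.002. This list also holds *TOP2A* and *PRPF19*, which are not core end-joining genes. *LIG4*, the ligase of end joining, was higher in REH (0.41, adjusted p = 9.97e-07) and RCH-ACV (0.37, adjusted p = 0.00177), and in 697 the value was 0.32 (adjusted p = 0.339). *TOP2A*, a topoisomerase, was higher in REH (0.12, adjusted p = 0.00991), and *XRCC5*, the Ku80 subunit that binds DNA ends, was lower in RCH-ACV (-0.14, adjusted p = 0.0105) and in the joint fit (-0.09, adjusted p = 0.0141), where *DCLRE1C*, the Artemis nuclease, was higher (0.13, adjusted p = 0.0200).

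For the lists at 0 calls in 697, an unadjusted p under 0.05 was found for 3 of 5 genes tied to SOX11 in lymphoma, 2 of 18 partners of focal adhesion kinase, 2 of 16 TGF-beta genes, 2 of 7 Musashi genes, 2 of 12 repair genes and 0 of the others. Among all genes tested in 697 the share was 8.24%. DESeq2 called 1 gene of these lists, a partner of focal adhesion kinase. Of the genes of all lists, markers included, edgeR called 18 of 90 tested in REH and 19 of 89 in RCH-ACV. DESeq2 called 14 in each of these lines. For 697 the pooled lists had 2 calls among 90 genes by edgeR and 4 by DESeq2, of which B precursor markers made up 2 and 3. With edgeR, the matching shares over every tested gene were 4.65% for REH, 7.51% for RCH-ACV and 0.559% for 697. Since earlier results were known when the lists were chosen, these pooled counts are not an independent result. For the actin-binding family in REH the unadjusted count was 2 of 9, against 16.9% of all genes, and DESeq2 called 0. The PDGF list had 0 calls and 0 unadjusted values under 0.05 in every line, and DESeq2 called 0.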

How the data were processed

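RNA was sequenced in 18 samples of REH, 697 and RCH-ACV, with 3 for each siRNA and line. Reads were quality-filtered by the authors, mapped to hg19 (STAR 2.5.3a) and assigned to RefSeq transcripts (HOMER), and the authors deposited raw counts in 1 table per line. The tables hold 0 columns of other samples. Each gene is represented by its most counted transcript, by the sum of all 18 samples. Symbols matched 98% of transcripts, and the rest stayed as rows of their own.

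Each line was fitted with edgeR 4.0.16 in R 4.3.3 (TMM, filterByExpr by group, two-sided quasi-likelihood F-test), and genes with a Benjamini-Hochberg adjusted p under 0.05 were called. The common effect and the interaction came from a fit over 18 samples, and differences between lines from the 9 control samples. The 7 genes and the lists were chosen with earlier results of these data known. All 7 and *SOX11* are named, from each list at most 4 called genes a line by size of change, and the 2 genes most like each by Pearson's r of log2(CPM + 0.5) among genes with a symbol. *PAX5*, *PRDM1*, *CCND1*, *MSI1*, *DBNL*, *DCLRE1C*, the PDGF genes and the 697 values of *LIG4*, of *VCL* and of the genes whose effect differed between lines were added after their values were seen. The joint values of *VCL* and *NEDD9* were added likewise.

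Alternatives were RLE and library-size scaling, DESeq2 1.42.0, no filter on low counts, a minimum of 1 CPM in 3 or more samples, the replicate block, other transcripts, 1 fit over all samples, for control levels a fit with both siRNAs, and each sample left out. A GC correction in 20 bins, with and without the block, was added after the data were seen. Positions are from GENCODE lifted to hg19, promoters from RefSeq on GRCh38. Plots were made with matplotlib. Counting floors cover counting error only.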

Additional observations from a re-analysis of the deposited data

Results flagged for a closer look

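The interaction called 0 of the 7 genes, but for 4 genes of the lists around them the response to the siRNA differed between the lines, by the interaction of siRNA and line in edgeR's quasi-likelihood F-test over 18 samples. For *ITGB1* the change on the log2 scale was 0.34 (REH), -0.08 (697) and -0.21 (RCH-ACV), with adjusted p = 0.000259 for the difference. *MYC* had -0.25, -0.08 and 0.09 in the same order (adjusted p = 0.00489). *CXCR4* had 0.20, -0.14 and 0.26 (adjusted p = 0.00759), and *ARHGEF7* had 0.14, -0.16 and -0.22 (adjusted p = 0.0126). In 697 the change of none of these 4 passed the test by itself, with adjusted p of 0.804, 0.674, 0.605 and 0.396.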

How the results depend on the processing

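Of 992 single-gene values computed under alternatives, 962 kept their direction and side of the threshold, 11 lost a call, 8 gained one and 11 changed sign, in each case where the main value was not called. The number of the 7 genes called moved in few settings. In RCH-ACV it was 1 with the GC correction and 1 with the GC correction and the replicate block (*DBN1* in both), and 0 to 1 without single samples. In REH it was 0 to 1 without single samples. In the joint fit it was 1 with the replicate block and 1 to 2 without single samples, as *PTK2* was lost, and 3 with the GC correction, with or without the block, as *DBN1* was gained.

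Sign changes without single samples gave ranges of -0.160 to 0.032 for *SETMAR* and -0.098 to 0.226 for *CD70* in 697, of -0.002 to 0.095 for *MSI2* in RCH-ACV and -0.003 to 0.040 in the joint fit (both without the third *SOX11* siRNA sample of RCH-ACV), and, for RCH-ACV against 697, of -0.051 to 0.264 for *CD70* and -0.106 to 0.003 for *MSI2*. *MSI2* was also at -0.013 in RCH-ACV by its other transcript and at 0.001 for RCH-ACV against 697 with library size alone, which shifts the median of all genes by over 0.1 only for 697 against REH (-0.153, against -0.019 with TMM).

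Counts over all genes moved more. In REH the count was 313 with DESeq2, 228 with 1 fit over all samples, 916 with the GC correction and 296 (without the third control sample) to 522 without single samples. In 697 they were 119 with no filter, 29 with the replicate block, 189 with 1 fit over all samples, 131 with the GC correction and 25 (without the second *SOX11* siRNA sample) to 70 without single samples. In RCH-ACV they were 582 with DESeq2 and 386 to 2479 without single samples, the latter without the third *SOX11* siRNA sample. The joint count was 744 with the block. The interaction count was 276 with no filter, 42 with the block, 188 with the GC correction, 158 with the GC correction and the block, and 57 to 179 without single samples. The cause of these moves was not tested.

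The labels number replicates alike in both siRNA groups. The deviations of same-numbered samples correlated at -0.0719, 0.00406 and -0.0321 for REH, at -0.266, 0.276 and -0.163 for 697, and at 0.0166, -0.0455 and -0.0583 for RCH-ACV, so the numbers were not taken to pair samples, and not every sample correlated best with its own number. With the block 470 genes were called in REH (458 of them also without it), 29 in 697 (29) and 700 in RCH-ACV (690). The block changed the call of no other of the 7 genes than *PTK2*. Low depth limits *PDGFA* in RCH-ACV most, where 3 to 8 reads a sample gave a log2 fold change of -0.418 with no filter (unadjusted p = 0.456).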
